A study of Mus musculus with 4 samples.

Results

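The ADAMTS-like genes of the mouse are Adamtsl1, Adamtsl2, Adamtsl3, Adamtsl4, Adamtsl5, Papln and Thsd4. These 7 genes, of 26031 annotated genes with distinct names, were read against lists of 5 kb genome bins at which 5-hydroxymethylcytosine (5hmC) was called different between cells with and without the chromatin remodeler LSH. Bins that overlapped a gene body or the 5 kb upstream of it were taken, which gave 272 bins of the 511186 bins with sequence on chromosomes 1 to 19 and X. The family was chosen by the number of listed bins at Adamtsl1, 13 in MEFs against 1 in ES cells, so all counts below are descriptions and no test was made on them.

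The study profiled genomic 5hmC by tagging it with an azide-bearing glucose, attaching biotin and capturing the fragments on streptavidin beads. The 4 libraries were wild-type mouse embryonic stem (ES) cells, ES cells knocked out for LSH, wild-type mouse embryonic fibroblasts (MEFs) and MEFs knocked out for LSH. The sources used here do not give strain, age or the knockout allele. With 1 library per group there is no replicate error. The deposited lists, 1 for ES cells and 1 for MEFs, hold positions only, without level, direction of change, fold or p-value, and the read depth is unknown. "Listed" therefore means called different between knockout and wild type, higher or lower. Without levels, the cell type labels could not be checked against markers. A difference between the ES and MEF lists cannot be told apart from a difference in depth or in how each list was made.

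5hmC is made from 5-methylcytosine by the TET enzymes and lies mostly at CpG dinucleotides, often in gene bodies. LSH, encoded by Hells, is an SNF2-family ATPase needed for normal DNA methylation in mouse development. ADAMTS-like proteins are secreted glycoproteins of the extracellular matrix. They share the thrombospondin type I repeats of the ADAMTS metalloproteases but lack the catalytic domain, and several of them bind fibrillin microfibrils, the scaffold of elastic fibres. Fibroblasts are a main source of this matrix.

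Over the 7 genes together, 27 of 272 bins were listed in MEFs, or 9.93% (exact 95% binomial interval 6.64% to 14.1%). In ES cells 5 bins were listed, or 1.84% (0.599% to 4.24%). Such intervals, given in brackets throughout, describe counting error alone, since bins are no replicates. Of all bins with sequence, 1.75% were listed in MEFs and 1.67% in ES cells. The family's ES share was thus near the share of all bins, and its MEF share was above it. The MEF bins were unevenly spread, since Adamtsl1 held 13 of them and Thsd4 held 10, together 85.2% of the family's MEF bins on 69.9% of its bins. The other 5 genes held 4. In MEFs 5 of 7 genes had a listed bin, where 14.1% of all genes had one. In ES cells it was 3 of 7, against 19.8% of all genes. Gene size bears on these counts. All 3 members longer than 100 kb had a MEF bin, where 45.9% of genes of 100 kb or more had one, and of the 4 shorter members 2 had one, where 10.6% of genes under 100 kb did. In ES cells these counts were 2 of 3, against 46.6%, and 1 of 4, against 16.9%.

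**Figure D1:**
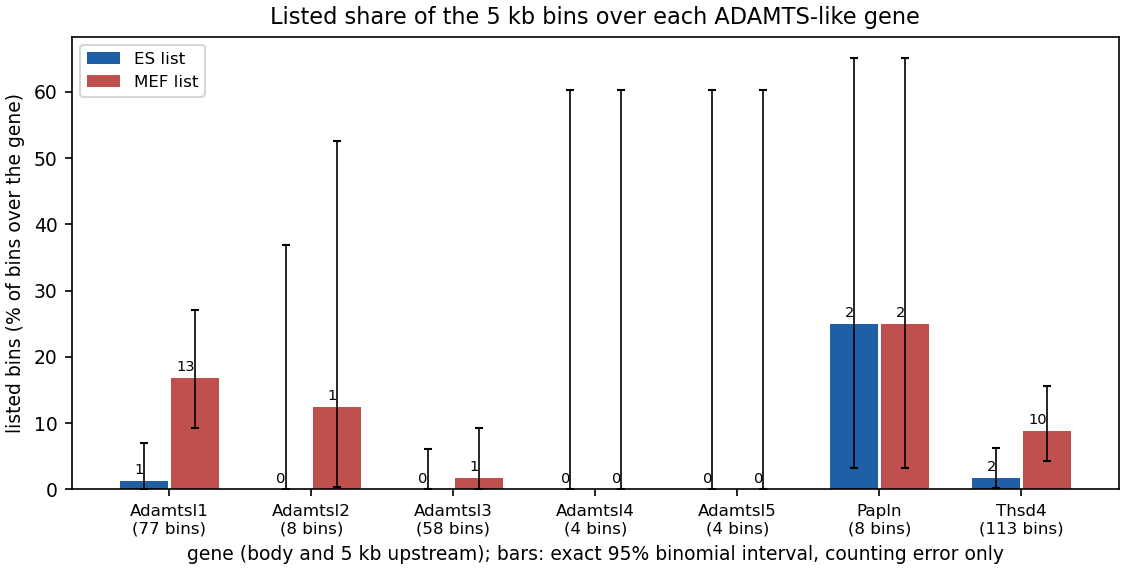
Share of the 5 kb bins over each ADAMTS-like gene (body and 5 kb upstream) that was listed, in percent, for the ES list and the MEF list. Numbers beside the bars are listed bins and error bars are exact 95% binomial intervals; Adamtsl1 stands at 16.9% and Thsd4 at 8.85% in the MEF list, and the intervals of the short genes are wide.

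Adamtsl1 encodes punctin, a secreted protein deposited in the cell substratum. It lies on the plus strand of chromosome 4 from 85699819 to 86074289 (mm9), 374 kb, and its longest coding transcript, Adamtsl1-201, has 28 exons. Of its 77 bins, 13 were listed in MEFs, or 16.9% (9.31% to 27.1%), and 1 in ES cells, or 1.3% (0.0329% to 7.02%). No bin was on both lists, which says little with 1 ES bin. The 13 and 1 are the counts for which the gene was chosen. If each of its bins were listed at the genome-wide share of bins of like CpG density, in 10 groups of bins by CpG per kb, the gene would hold 1.18 MEF bins and 0.92 ES bins. These values stand beside the 13 and 1 that chose the gene, and nothing is read from the difference.

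The MEF bins ran along nearly the whole gene, over 365 kb from the first to the last. The first pair touched, at 85710001 to 85720000 in intron 1. A bin from 85740001 followed in intron 2. Then came the longest gap, 105 kb without a listed bin of either cell type, which takes in the whole of introns 3 and 4. Median CpG densities in those introns were 6.0 and 5.90 per kb, against 7.0 over the gene. The next MEF bins began at 85850001 in intron 5 and at 85870001 over exon 8, and a further one at 85920001 over exon 13.

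The stretch with the most MEF bins lay further downstream. Joining listed bins no more than 10 kb apart gave 8 stretches, the longest with 4 bins from 85960001 to 86000000. Its bins lay in intron 14, intron 15, over exon 16 and in intron 18. A single bin from 86015001 lay in intron 19. The last 2 bins, from 86060001 and from 86070001, covered exons 24 and 25 and exons 27 and 28 at the 3′ end. With the gene divided into 3 parts of equal length from its 5′ end, 3 of 27, 3 of 25 and 7 of 25 bins were listed in MEFs, so the 3′ part held the most. Median CpG per kb in these parts was 6.20, 6.6 and 8.40, and the MEF shares were 11.1%, 12% and 28%. The first and second parts held 3 MEF bins each, so their shares differ only through their number of bins. A relation with CpG density was not tested.

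**Figure D2:**
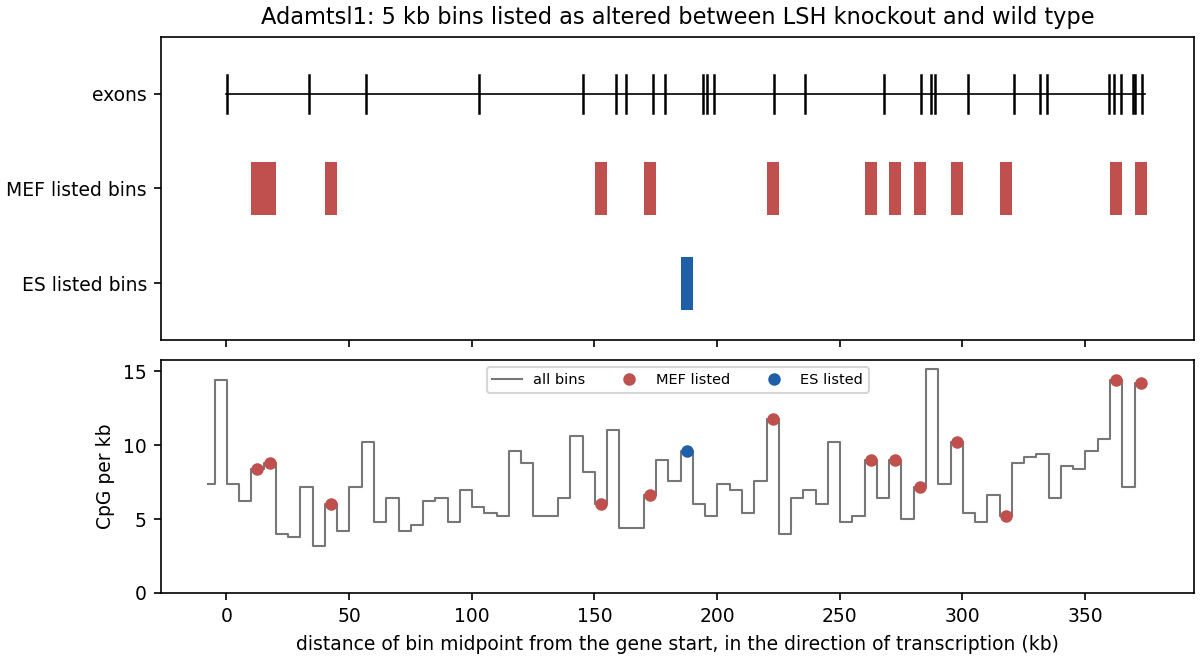
Map of Adamtsl1 by distance from the gene start in kb, in the direction of transcription. The upper panel shows the exons of the longest coding transcript and the listed bins of each cell type, and the lower panel CpG per kb in each bin; the 13 MEF bins spread over the gene with a gap of 105 kb, and the 1 ES bin lies near the middle.

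The gene has shorter coding transcripts that end inside it. Adamtsl1-002 ends at 85898877, after 199 kb. Of the 13 MEF bins, 5 had their midpoint within its span and 8 lay beyond it, where Adamtsl1-001 and Adamtsl1-201 are the only coding transcripts annotated. The ES bin, 85885001 to 85890000, lay within it. Its midpoint is in intron 9 of Adamtsl1-201, and it covers a coding exon used by Adamtsl1-001 and Adamtsl1-002 but absent from Adamtsl1-201. The nearest MEF bin lay 10 kb upstream of it.

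Of the 13 MEF bins, 5 overlapped an annotated exon of the gene, or 38.5% (13.9% to 68.4%), while 20 of the 63 bins on neither list did, or 31.7% (20.6% to 44.7%). By bin midpoint, 2 of the 13 MEF bins lay in an exon, or 15.4%, against 0 of the 63 bins on neither list. These intervals and counts are too wide and small to order exons against introns. The bin of the gene start, 85695001 to 85700000, was on neither list. Its 14.4 CpG per kb put it in the most CpG-rich of the 10 groups. Of all bins in that group, 3.72% were listed in MEFs and 5.59% in ES cells, so most such bins were unlisted. The bin with the highest CpG density in the gene, 15.2 per kb at 85985001, was of the same group and also on neither list. It directly follows a listed MEF bin.

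Listed bins of Adamtsl1 were somewhat richer in CpG than its other bins, with wide overlap. The 13 MEF bins had a lowest, median and highest density of 5.20, 8.80 and 14.4 CpG per kb, and the 63 bins on neither list 3.20, 6.40 and 15.2. The ES bin had 9.60. Median GC content was 42.8% in the MEF bins and 40.5% in the bins on neither list. When the gene's bins were split by the genome-wide CpG groups, 1 of 24 was listed in MEFs in the 4 poorest groups, 8 of 39 in the next 3 (20.5%) and 4 of 14 in the 3 richest (28.6%). The genome-wide MEF shares in these groups were 0.334%, 1.53% and 3.76%. The shares at Adamtsl1 were higher, by 1 listed bin alone in the poorest groups. They split the 13 bins that chose the gene, so nothing is read from the difference. Repeated sequence was scarce in most bins of the gene. Measured as the percentage of 32-base words with a second copy in the genome, it reached at most 13.5% in a MEF bin, with a median of 1.4%. In the 63 bins on neither list it reached 85.6%, with a median of 2.4%, so typical bins hardly differed.

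The sequences below are examples from some of the listed bins of Adamtsl1. They were picked for CpG and are not typical of their bins, and the lists do not say where in a bin 5hmC differed. Each is the 300 bases with the most CpG within a listed bin, outside annotated UTRs, on the plus strand of mm9 read 5′ to 3′, with each CpG in capitals. The ES bin is shown first, with 13 CpG at chr4:85889653-85889952 overlapping the coding exon absent from Adamtsl1-201. The MEF bin over exon 13 had 15 CpG at chr4:85922690-85922989, across the boundary of intron 12 and that exon. An intron 14 bin of the 4-bin stretch had 11 CpG at chr4:85962194-85962493, outside any exon. The intron 19 bin, the poorest in CpG of the listed bins of the gene, had no window with more than 6, at chr4:86015001-86015300.
Adamtsl1 ES bin: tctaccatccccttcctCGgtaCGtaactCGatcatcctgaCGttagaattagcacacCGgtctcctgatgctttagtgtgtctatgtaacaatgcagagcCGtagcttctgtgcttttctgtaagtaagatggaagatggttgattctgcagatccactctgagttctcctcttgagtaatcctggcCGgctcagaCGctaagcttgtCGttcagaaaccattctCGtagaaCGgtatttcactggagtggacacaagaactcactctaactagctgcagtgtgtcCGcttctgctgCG
Adamtsl1 MEF exon 13 bin: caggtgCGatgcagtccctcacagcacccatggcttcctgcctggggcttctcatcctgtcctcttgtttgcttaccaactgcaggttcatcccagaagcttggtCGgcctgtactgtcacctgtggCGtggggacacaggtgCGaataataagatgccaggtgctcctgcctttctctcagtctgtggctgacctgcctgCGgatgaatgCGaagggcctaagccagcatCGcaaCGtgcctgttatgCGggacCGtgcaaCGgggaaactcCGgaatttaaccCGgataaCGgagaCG
Adamtsl1 MEF intron 14 bin: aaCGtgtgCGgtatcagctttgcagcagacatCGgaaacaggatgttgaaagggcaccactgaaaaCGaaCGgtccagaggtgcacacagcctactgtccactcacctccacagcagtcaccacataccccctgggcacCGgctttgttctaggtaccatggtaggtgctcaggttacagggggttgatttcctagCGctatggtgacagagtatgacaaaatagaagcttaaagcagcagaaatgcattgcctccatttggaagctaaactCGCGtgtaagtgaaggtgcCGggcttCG
Adamtsl1 MEF intron 19 bin: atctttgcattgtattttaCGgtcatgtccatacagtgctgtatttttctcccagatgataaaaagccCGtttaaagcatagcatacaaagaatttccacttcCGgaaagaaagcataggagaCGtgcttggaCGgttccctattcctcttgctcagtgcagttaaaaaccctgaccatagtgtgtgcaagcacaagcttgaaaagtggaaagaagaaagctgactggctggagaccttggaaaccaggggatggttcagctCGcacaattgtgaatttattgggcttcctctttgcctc
Over all 14 listed bins of the gene, such windows held 6 to 15 CpG. The window of the exon 8 bin, which overlaps coding sequence, held 6, as few as that of intron 19. The exon 13 window has the most CpGs of the gene's listed bins, 15 in 300 bases, against 59 in its whole 5 kb bin.

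Listed MEF bins did not stop at the ends of the gene. In the 200 kb below the window, 2 of 40 bins were listed in MEFs, from 85660001 and 85675001, both intergenic. In the 200 kb above it, 3 of 40 were listed, from 86080001 (intergenic), 86130001 and 86175001, the latter pair in Fam154a. These shares of 5% and 7.5% lie between that of the gene and the 1.75% of all bins. No ES bin was listed in either flank. The nearest genes are Gm12680, 271 kb below, with 3 MEF bins, and Fam154a, 16.3 kb above, with 2 MEF bins, and neither had an ES bin.

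Thsd4, also called ADAMTSL6, encodes a matrix protein that promotes the assembly of fibrillin microfibrils. It was the other member with many listed bins. The gene lies on the minus strand of chromosome 9 from 59814738 to 60369853, 555 kb. Of its 113 bins, 10 were listed in MEFs, or 8.85% (4.33% to 15.7%), and 2 in ES cells, or 1.77% (0.215% to 6.25%). At the genome-wide shares of bins of like CpG density the counts would be 3.06 and 2.86.

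The MEF bins of Thsd4 were most frequent toward the 5′ end of the gene. In 3 parts of equal length from the 5′ end, 8 of 38, 2 of 37 and 0 of 38 bins were listed in MEFs. Median CpG density hardly differed between these parts, at 9.70, 9.40 and 9.50 per kb. Intron 6 of the longest coding transcript, Thsd4-001, is 123 kb long and held 5 MEF bins among 25, at a median of 9.60 CpG per kb. Intron 7 is longer, 196 kb, and held 0 among 39, at a median of 9.0. The short coding transcript Thsd4-003, from 59817526 to 59989027, had 0 of the 10 MEF bins within its span. Another short one, Thsd4-004, from 60276033 to 60369853 at the 5′ end, had 5 by bin midpoint.

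At the 5′ end 3 MEF bins touched, from 60355001 to 60370000. They covered the gene start at 60369853, the first exon of Thsd4-001 and the bin between them. That gene start is the start of Thsd4-004, whereas Thsd4-001 begins at 60358842. The bin of the gene start had 23.4 CpG per kb, the highest of the gene. The other MEF bins began at 60335001, 60285001, 60220001 (over exon 6), 60210001, 60190001, 60155001 and 60125001. The ES bins were elsewhere, the first in intron 5 from 60230001, with 5 kb between it and the nearest MEF bin, and the second over the last exon, from 59815001, 305 kb from any MEF bin. Thus Thsd4, like Adamtsl1, had no bin on both lists. With 2 ES bins at Thsd4 and 1 at Adamtsl1, that absence says little. The share of all bins on both lists is not given here.

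**Figure D3:**
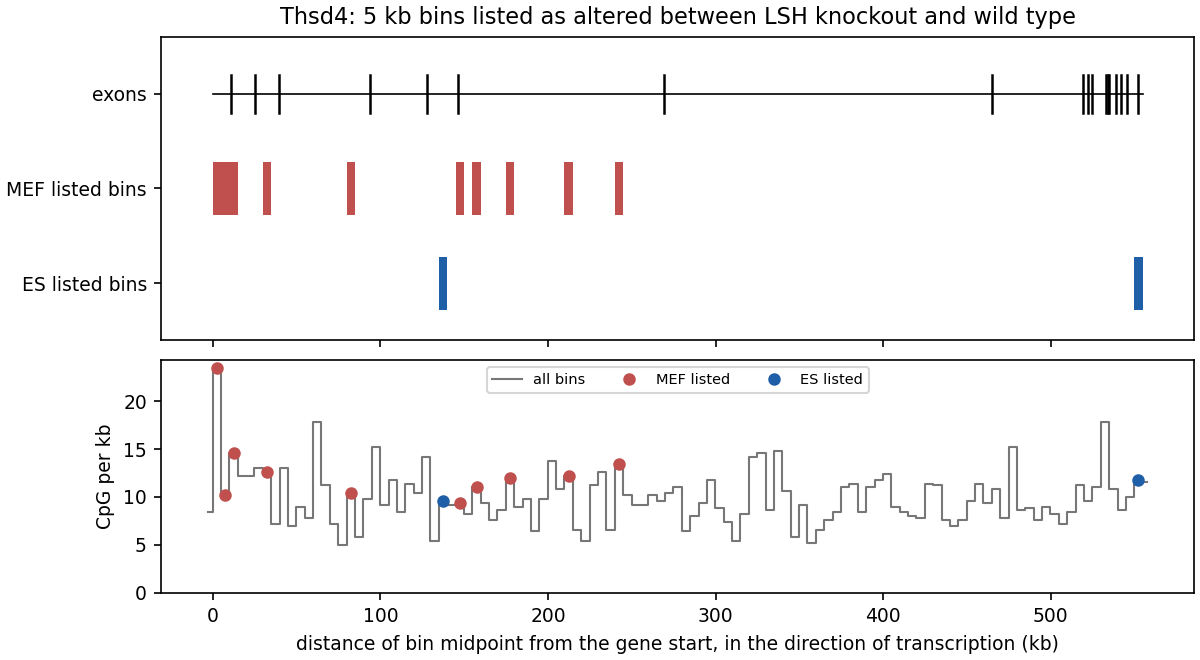
Map of Thsd4 by distance from the gene start in kb, in the direction of transcription. The upper panel shows the exons of the longest coding transcript and the listed bins, and the lower panel CpG per kb in each bin; of the 10 MEF bins, 8 lie in the first and 2 in the middle of 3 parts of equal length, with 0 of 38 bins listed in MEFs in the last part.

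In CpG content the listed bins of Thsd4 stood higher than those of Adamtsl1. The lowest, median and highest density of the 10 MEF bins were 9.40, 12.1 and 23.4 CpG per kb, and of the 101 bins on neither list 5.00, 9.20 and 17.8. Of the 57 bins in the 3 CpG-richest genome-wide groups, 9 were listed in MEFs (15.8%), against 1 of 49 in the 3 groups below (2.04%), where the genome-wide share was 1.53%. At Adamtsl1 the corresponding shares were 28.6% and 20.5%. By count, the bins of middle CpG density held most of the MEF bins at Adamtsl1 and 1 at Thsd4. The Adamtsl1 counts split the MEF bins that chose the gene. The genes also differ in CpG density, with medians over all their bins of 7.0 per kb at Adamtsl1 and 9.60 at Thsd4. Nothing is read from the contrast.

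Sequences from 2 MEF bins of Thsd4, the bin of the gene start and a bin in intron 6, are printed on the plus strand of mm9. They were picked within each bin as above, with CpG in capitals. The window of the gene start bin, chr9:60369363-60369662, has 18 CpG, all crowded toward its right-hand end. It lies inside the gene, outside annotated exons, and does not reach the gene start at 60369853. The intron 6 window, chr9:60212170-60212469, has 12, spread through it.
Thsd4 MEF gene start bin: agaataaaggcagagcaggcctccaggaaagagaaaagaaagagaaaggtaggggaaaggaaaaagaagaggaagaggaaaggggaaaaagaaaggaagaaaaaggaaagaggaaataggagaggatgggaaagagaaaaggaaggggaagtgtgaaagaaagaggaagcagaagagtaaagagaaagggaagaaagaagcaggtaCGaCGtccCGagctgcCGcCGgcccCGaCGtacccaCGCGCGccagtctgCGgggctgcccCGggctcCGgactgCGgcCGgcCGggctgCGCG
Thsd4 MEF intron 6 bin: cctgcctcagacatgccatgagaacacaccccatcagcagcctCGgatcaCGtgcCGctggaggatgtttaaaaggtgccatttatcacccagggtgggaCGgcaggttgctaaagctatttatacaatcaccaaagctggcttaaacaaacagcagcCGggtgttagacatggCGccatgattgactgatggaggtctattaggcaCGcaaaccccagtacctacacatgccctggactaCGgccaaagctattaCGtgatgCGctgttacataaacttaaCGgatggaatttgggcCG

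**Figure D4:**
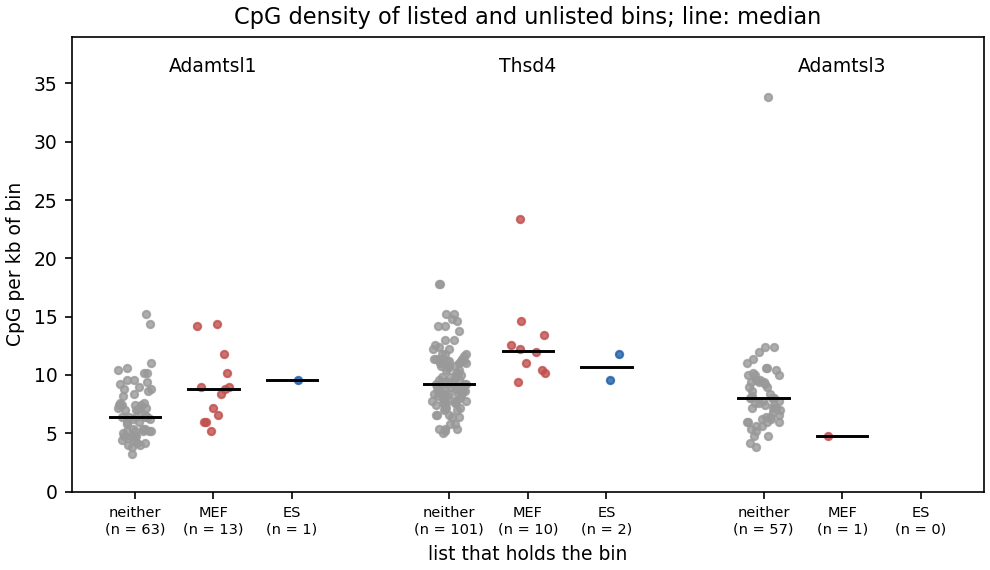
CpG per kb of each 5 kb bin over Adamtsl1, Thsd4 and Adamtsl3, by the list that holds the bin; points are bins and lines are medians. MEF bins had a median of 8.80 at Adamtsl1 and 12.1 at Thsd4, against 6.40 and 9.20 for bins on neither list, with overlapping ranges.

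Papln encodes papilin, a matrix glycoprotein with thrombospondin, Kunitz and immunoglobulin domains. It is short, 28.7 kb on chromosome 12 (85104584 to 85133332, plus strand), and had 2 of 8 bins listed in each cell type, or 25% (3.19% to 65.1%). It was the only member with a bin on both lists, at 85130001 to 85135000 over exons 27 and 28. The 3′ end of Numb, at 85134984, also falls in the last few bases of that bin. Numb encodes a regulator of Notch signalling and lies on the opposite strand. The bin thus touches both genes, Numb only at its edge, and is not assigned to Papln alone. Nothing is read from its place on both lists, since the share of all bins on both lists is not given here. The other MEF bin, 85100001 to 85105000, held the gene start, and the other ES bin, 85110001 to 85115000, covered exons 3 to 7 at 23.2 CpG per kb. At the genome-wide shares for CpG density the gene would hold 0.31 MEF bins and 0.43 ES bins. The shared bin is shown by its most CpG-rich 300 bases outside UTRs, chr12:85130056-85130355, which have 14 CpG and overlap coding sequence.
Papln bin on both lists: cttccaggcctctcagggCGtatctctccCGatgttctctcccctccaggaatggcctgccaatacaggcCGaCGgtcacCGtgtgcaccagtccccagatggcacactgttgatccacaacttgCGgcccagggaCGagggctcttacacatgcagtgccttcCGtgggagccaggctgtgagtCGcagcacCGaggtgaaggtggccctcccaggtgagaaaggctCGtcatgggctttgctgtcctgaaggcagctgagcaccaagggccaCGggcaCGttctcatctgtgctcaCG

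Adamtsl3 encodes a secreted protein of much the same domain plan as that of Adamtsl1. It spans 279 kb on chromosome 7 (89484204 to 89762960, plus strand). Only 1 of its 58 bins was listed in MEFs, or 1.72% (0.0436% to 9.24%), and 0 in ES cells (interval up to 6.16%). The MEF bin, from 89605001 in intron 6, had 4.80 CpG per kb, below the gene's median of 7.90. The median over Adamtsl1 was 7.0. At the genome-wide shares for CpG density Adamtsl3 would hold 1.09 MEF bins, close to the 1 observed.

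The other 3 members are short. Adamtsl2, which binds fibrillin and latent TGF-beta binding protein and is mutated in geleophysic dysplasia, had 1 of 8 bins listed in MEFs, from 26950001 on chromosome 2 over exons 11 and 12, and 0 in ES cells. Adamtsl4, mutated in inherited displacement of the lens, had 0 of 4 bins in either list, as had Adamtsl5, a microfibril-associated member. With 4 bins the interval of a count of 0 reaches 60.2%, so these genes show little either way. The bins of Adamtsl5 were the richest in CpG of the family, with a median of 29.7 per kb. The bins holding the 7 gene starts all lay in the 3 CpG-richest groups, and 2 of them, at Papln and Thsd4, were listed in MEFs and 0 in ES cells. Of all bins in these 3 groups, 3.76% were listed in MEFs, and in ES cells 2.88% to 5.59% by group. With 7 bins nothing is read from these counts.

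Among the 2525 genes of 100 kb or more that contain fewer than 10 other genes, Adamtsl1 ranked 7 by MEF bin count and 58 by the share of its bins listed in MEFs. The median share in these genes was 0% and the 95th percentile 12.5%, below the 16.9% of Adamtsl1. Thsd4 ranked 25 by count and 243 by share, and Adamtsl3 671 and 1029. Of these genes 1.39% had 10 or more MEF bins, Adamtsl1 and Thsd4 among them. In ES cells Adamtsl1 ranked 1105 by share and Thsd4 1034, with a median of 0% and a 95th percentile of 9.26%. In MEFs Adamtsl1 stood above the 95th percentile, a place that follows from the counts that chose the gene. Thsd4 stood between the median and the 95th percentile. In ES cells both genes, at 1.3% and 1.77%, lay above the median and well below the 95th percentile.

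**Figure D5:**
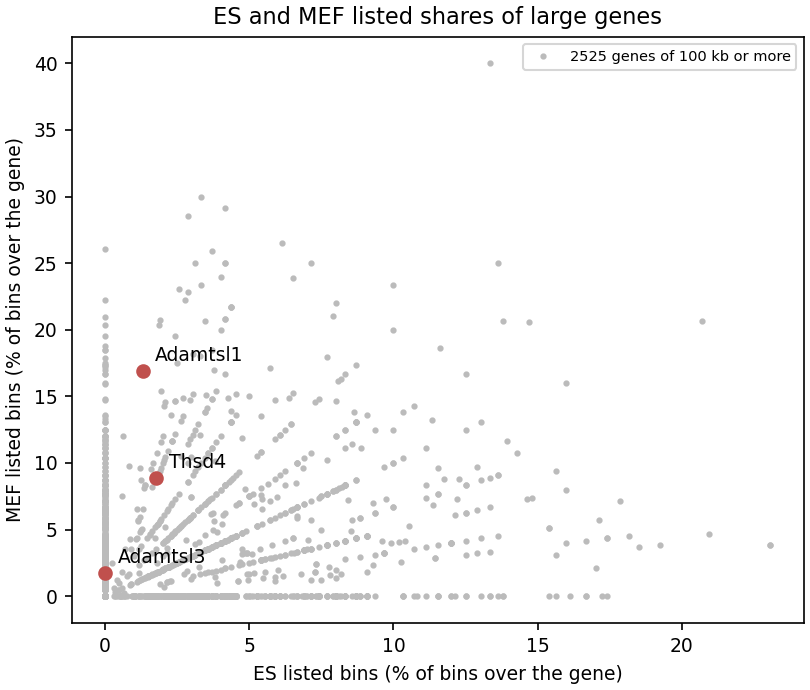
Share of bins listed in ES cells (horizontal axis, percent) and in MEFs (vertical axis, percent) for 2525 genes of 100 kb or more, with 3 ADAMTS-like genes marked. Adamtsl1 stands at 1.3% and 16.9%, Thsd4 at 1.77% and 8.85%, and Adamtsl3 at 0% and 1.72%.

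The 5 large genes outside the family and its pathway lists whose ES and MEF bins per 100 kb lay nearest to those of Adamtsl1 (0.26 and 3.38) were Mylk, Met, Rph3al, Efna5 and Apba1. Likeness was the Euclidean distance over these 2 values, 0.26 to 0.27 for the 5 genes, against 1.61 for Thsd4 and 3.04 for Adamtsl3. Mylk, the myosin light chain kinase gene, had 9 MEF bins and 0 ES bins. Met, the hepatocyte growth factor receptor gene, had 4 and 0, as had Rph3al. Efna5, an ephrin ligand gene, had 10 and 0, and Apba1 had 7 and 1. Bins per 100 kb of a small gene rest on few bins, 24 each for Met and Rph3al.

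The ADAMTS metalloproteases share the ancillary domains of the ADAMTS-like proteins. Of 19 protease genes, 8 (42.1%) had a listed bin in MEFs and 10 (52.6%) in ES cells, where 14.1% and 19.8% of all genes had one, lengths not matched. Many of the protease genes are longer than 100 kb and many are shorter. Of all genes of 100 kb or more, 45.9% had a listed bin in MEFs and 46.6% in ES cells. Of genes under 100 kb, 10.6% and 16.9% did. The protease list mixes both sizes, so neither share alone is its match. Their bins were listed at 4.49% in MEFs (2.87% to 6.66%) and 2.15% in ES cells (1.08% to 3.81%). Adamts20, needed for melanoblast survival, led with 8 MEF bins and 1 ES bin among 41. Adamts3, a procollagen N-propeptidase gene, had 4 and 0 among 44, and Adamts16 had 4 and 0 among 25. Adamts2, which encodes another procollagen N-propeptidase, had 2 and 0, and Adamts14, of the same group, had 2 and 2. The protease gene of greatest length, Adamts17, had 0 MEF bins and 1 ES bin among 65. No protease gene reached the 13 MEF bins of Adamtsl1, the count that chose that gene. By share of bins, Adamts20 at 19.5% stood above the 16.9% of Adamtsl1, and Adamts16 stood at 16%.

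Microfibril genes encode the partners that several ADAMTS-like proteins bind. Of 8, 5 had a listed bin in MEFs, where 14.1% of all genes and 45.9% of genes of 100 kb or more had one, and 5 had one in ES cells, where 19.8% and 46.6% did. Listed were 6.73% of their bins in MEFs (3.73% to 11%) and 4.33% in ES cells (2.00% to 8.05%), against 1.75% and 1.67% of all bins. Of the fibrillin genes, Fbn1 had 5 MEF bins and 1 ES bin among 43, and Fbn2 had 1 and 1 among 42. Ltbp1, a latent TGF-beta binding protein gene, had 5 and 3 among 80. Its relatives Ltbp2 and Ltbp4 had 2 and 1 among 21 and 0 and 3 among 8. Thrombospondin repeats carry an O-linked fucose that is added by Pofut2 and extended by the glucosyltransferase B3galtl before secretion. B3galtl had 2 MEF bins and 1 ES bin among 19, and Pofut2 had 0 and 1 among 4. Of these 2 genes, 1 thus had a MEF bin and 2 an ES bin, beside the same 14.1% and 19.8% of all genes. With bins assigned by midpoint, 1 and not 2 of these enzyme genes had an ES bin.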

How the data were processed

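ES cells and MEFs, wild-type or knocked out for LSH, were profiled for 5hmC by chemical capture and sequencing, 1 library each. BWA and SAMtools 1.3.1 on mm9 are named, without their role, per the submitters' processing notes. The sources used here do not name the caller, threshold, depth or any input. The files deposited by the authors hold positions of 5 kb bins, 8557 for ES cells and 9002 for MEFs, with no other measurement. The reference was NCBIM37 (mm9) with GENCODE M1; the running bin numbers of 8545 of 8545 ES and 8972 of 8972 MEF bins on chromosomes 1 to 19 and X equalled its numbering. Positions are 1-based.

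Gene windows were the whole gene model and 5 kb upstream, with any overlap counted. The background excluded bins more than 50% undetermined. CpG density was divided at the genome-wide deciles, and repeated sequence was measured from 1 in 64 of all 32-base words. Exon numbers follow the longest coding transcript. Exact binomial (Clopper-Pearson) 95% intervals were used. Bin counting was checked on simulated lists. No test was made: there are no replicates, and the members and lists were chosen with earlier results of these data known. Outside the 7 genes, the text names the neighbours of Adamtsl1, a gene sharing a listed bin, pathway genes with 2 or more bins in either list, and the 5 genes of nearest pattern. Adamts17, Fbn2, Pofut2 and the genes in the flanks were named after their values were seen. Tools were matplotlib 3.10.9, numba 0.67.0, pandas 2.3.3, scipy 1.17.1, numpy 2.4.6 and Python 3.11.15.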

Additional observations from a re-analysis of the deposited data

How the results depend on the processing

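Of 95 recomputed values, 93 stayed within 1.5 times the reported count, or within the interval of the reported share. The MEF count of Adamtsl1 was 13 and its ES count 1 under the gene body alone, 10 kb upstream, bin midpoints, 50% overlap and the longest coding transcript. The family's MEF total was 26 to 27 and its ES total 5, and Thsd4 had 9 to 10 MEF bins. Joining only touching bins left 2 bins in the longest MEF stretch of Adamtsl1, and joining within 25 kb gave 5. By bin midpoint 1 of the O-fucosylation enzyme genes had an ES bin, and 15.4% of the MEF bins of Adamtsl1 lay in an exon, inside the interval of the reported share. No stricter threshold could be tried, since the lists carry no score. No paired analysis was possible because each group had 1 library. The unknown depth leaves unlisted bins uninterpretable as unaltered.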

Other observations

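Within 200 kb on either side, Adamtsl2, Adamtsl3, Adamtsl4 and Adamtsl5 had 0 MEF bins among 40 per side, where 1.75% of all bins were listed in MEFs, so counts of 0 are common at this size. ES bins, 1.67% of all bins, were listed beside each of these genes. Below Adamtsl2, 2 of 40 bins were listed in ES cells, 1 of them in the protease gene Adamts13 (from 26840001 on chromosome 2). Around Adamtsl3, the ES bins lay in Sh3gl3 (from 89375001), as a touching pair in Eftud1 (from 89840001 and 89845001) and in intergenic sequence (from 89955001). Around Adamtsl4 they lay in Ctss, the cathepsin S gene, at the start region of Ecm1 and Tars2, and in Rprd2. Around Adamtsl5 they lay at Mum1 and Mex3d. Papln had 1 MEF bin on each side, both intergenic. Above Thsd4, 3 of 40 bins were listed in MEFs, 2 of them in Lrrc49 and 1 at Larp6, and 0 in ES cells. No difference between these flanks was tested.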
